A study of Mus musculus with 4 samples.

Results

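The Ly6 family surface antigens are small proteins that sit on the outside of the cell, and 8 of their genes, Ly6c1, Ly6c2, Ly6a, Ly6e, Ly6d, Ly6i, Ly6g and Ly6k, were followed here in splenic regulatory T (Treg) cells with and without the histone methyltransferase Setd2. The members were picked by name out of 24087 gene rows. They were chosen from the contrast of KO with CTRL reported here, in which Ly6c2 was among the genes with the highest fold changes, so their values in that contrast are given as a description and without p-values. Treg cells are the CD4+ T cells, marked by the transcription factor Foxp3, that restrain other immune cells. All 4 libraries came from CD3+CD4+YFP+ cells sorted from the spleen of unchallenged C57BL/6 mice. The 2 control libraries (CTRL) were from Foxp3Cre-YFPSetd2f/+ animals and the 2 KO libraries were from Foxp3Cre-YFPSetd2f/f littermates. Each library held about 1000000 cells from 2 pooled mice. Both genotypes carried the Cre-YFP under Foxp3 control, so recombination followed Foxp3 expression, and the CTRL cells had a floxed Setd2 allele too and were a heterozygous control, not a wild type. Polyadenylated RNA was sequenced, and the values are FPKM, fragments scaled to gene length and to library size, so levels of different genes can be set side by side only as far as the lengths used hold.

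LY6 proteins share a compact, cysteine-rich fold in which loops held by disulfide bonds project like fingers, and most are tied to the outer membrane by a glycosylphosphatidylinositol (GPI) lipid anchor in place of a transmembrane segment. In the mouse their genes lie together on a stretch of chromosome 15, and several arose by duplication. Ly6c1 and Ly6c2 both encode the Ly-6C antigen, which is used to sort inflammatory monocytes and subsets of memory T cells. Ly6a encodes Sca-1, a marker of blood stem cells that is also carried by activated lymphocytes and is induced by interferon. Ly6e encodes an antigen of thymocytes known as thymic shared antigen and as Sca-2. Ly6d marks lymphoid progenitors committed to the B lineage, Ly6g is the neutrophil antigen seen by antibodies to Gr-1, and Ly6k is known mainly from the testis.

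All 8 genes lay on chromosome 15 of GRCm38, between bases 74762056 and 75159126, a span of 397071 bases in the GENCODE vM21 annotation. Ly6c1 was at 75044018 to 75048830 and Ly6c2 at 75108158 to 75111970, both on the minus strand. Ly6a lay at 74994877 to 74998031 on the minus strand and Ly6e at 74955051 to 74959905 on the plus strand. The coding sequences of Ly6c1 and Ly6c2 were each 396 bases long and were identical at 387 of them (97.7%). Of the 9 differing positions, 6 fell in the first 90 coding bases, which are shown because the results turn on telling these genes apart. Capitals mark the bases that differ.
Ly6c1: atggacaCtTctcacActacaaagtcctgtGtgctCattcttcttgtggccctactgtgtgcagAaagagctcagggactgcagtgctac
Ly6c2: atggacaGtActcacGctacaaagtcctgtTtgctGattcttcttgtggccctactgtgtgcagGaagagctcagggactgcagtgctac

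Among the other members, the coding sequences of Ly6a and Ly6i were 86.4% identical, those of Ly6a and Ly6g 83.2%, and those of Ly6c1 and Ly6a 82.0%. Ly6e, Ly6d and Ly6k each stood at 40.9% to 50.1% identity with every other member. The other 5 genes thus formed a close group and Ly6e, Ly6d and Ly6k did not belong to it. The close group could share sequencing reads, so the annotated transcripts were searched for stretches of 100 bases found in another gene on either strand. For Ly6c2, 159 of 2737 stretches (5.81%) also occurred in Ly6c1. For Ly6c1, 178 of 1756 stretches (10.1%) occurred elsewhere, 159 of them in Ly6c2 and 19 in Ly6a. Ly6e, Ly6d, Ly6i and Ly6g had 0 shared stretches. Most of the GENCODE vM21 sequence of each Ly-6C gene was therefore its own over 100 bases. The gene lengths behind the FPKM, and how reads with several matches were counted, are not given in the sources used here. The shared part of the sequence that was counted is thus not known.

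**Figure D1:**
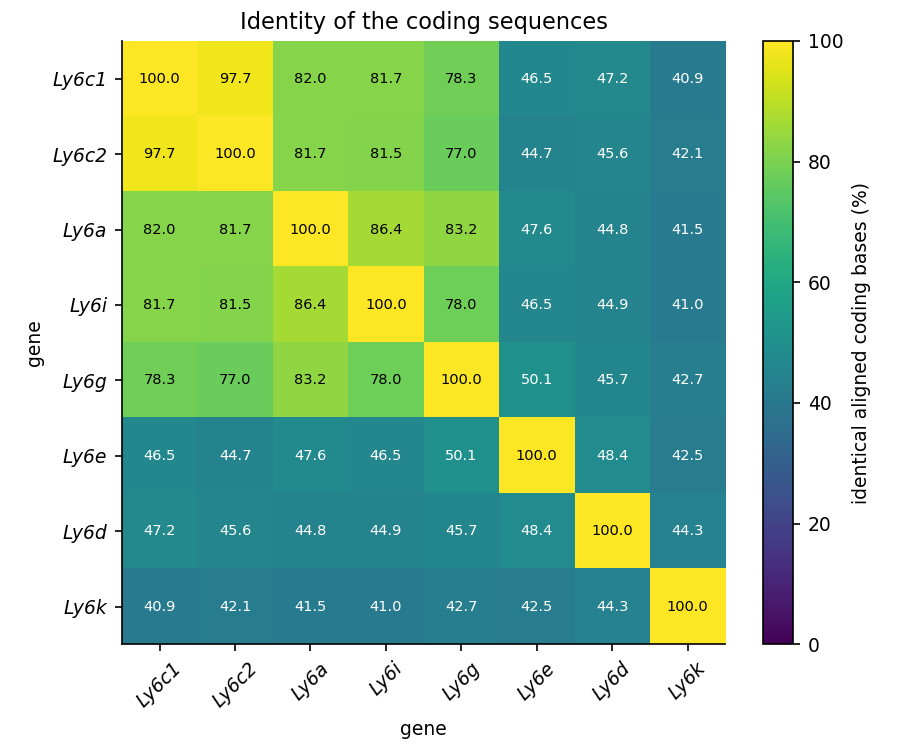
Percentage of aligned coding bases that are identical between each pair of the 8 Ly6 genes, with the genes on both axes and the colour scale from 0 to 100%. Ly6c1 and Ly6c2 are 97.7% identical, Ly6a, Ly6i and Ly6g stand between 77.0% and 86.4% with them and with each other, and Ly6e, Ly6d and Ly6k lie at 50.1% or below.

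The start regions of the Ly-6C genes differed more than their coding sequences. Of the 8 members, 3 (Ly6c1, Ly6c2 and Ly6g) matched an entry of the RefSeq promoter table (GRCm38.p6). The 250 bases ahead of the start were compared for Ly6c1 (chr15:75048838-75049087, minus strand) and Ly6c2 (chr15:75111972-75112221, minus strand), and 164 of 228 aligned columns (71.9%) were identical, with 52 mismatches and 12 gap columns. Both are shown 5′ to 3′ because the levels of these genes moved apart. Capitals mark bases that differ or have no partner in the alignment used. A stretch with capitals can still occur elsewhere in the other window. Both windows hold ccaactgctata, which the alignment did not pair, so the capitals and the identity depend on the alignment.
Ly6c1 promoter: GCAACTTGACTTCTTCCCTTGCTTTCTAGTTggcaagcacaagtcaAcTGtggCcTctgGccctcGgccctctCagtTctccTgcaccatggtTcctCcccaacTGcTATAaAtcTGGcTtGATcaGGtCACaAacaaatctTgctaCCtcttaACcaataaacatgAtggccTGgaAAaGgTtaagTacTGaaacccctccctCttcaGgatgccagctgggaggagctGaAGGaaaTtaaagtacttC
Ly6c2 promoter: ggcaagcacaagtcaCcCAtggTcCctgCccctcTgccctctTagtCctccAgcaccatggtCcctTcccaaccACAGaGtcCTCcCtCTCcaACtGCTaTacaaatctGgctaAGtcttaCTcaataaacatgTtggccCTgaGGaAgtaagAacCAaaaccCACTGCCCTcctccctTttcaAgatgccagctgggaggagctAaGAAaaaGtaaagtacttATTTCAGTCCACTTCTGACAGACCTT

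The promoter windows of Ly6c1 and Ly6g were 75.1% identical and those of Ly6c2 and Ly6g 65.5%. The STAT motif TTCNNNGAA and the interferon-response core GAAANNGAA were searched on both strands, and the promoter windows of these 3 genes, at both starts that RefSeq lists for each, held 0 matches to either. Of 32851 promoter windows of the same length, 7.02% held the STAT motif and 7.13% the interferon-response core. The search covers these letters in these windows only.

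Ly6e was by far the most abundant member, with 848 and 838 FPKM in the CTRL libraries and 1049.8 and 1190.2 in the KO libraries. It ranked between 52 and 81 among all genes in the 4 libraries. Ly6a followed, then Ly6c1 and Ly6c2, while Ly6d, Ly6k, Ly6i and Ly6g stood at or under 3.85 FPKM in every library. The summed FPKM of the 8 genes was 1017 and 979.6 in CTRL and 1279 and 1513 in KO, or 0.217% and 0.210% against 0.272% and 0.320% of each library's total. Ly6e supplied 83.3% and 85.5% of that sum in CTRL and 82.1% and 78.7% in KO. The order Ly6e above Ly6a above the Ly-6C genes held in all 4 libraries, whereas the Ly-6C genes changed places. The lowest neighbours in the order, Ly6d with Ly6k and Ly6i with Ly6g, crossed between libraries of the same group and did not differ beyond their spread.

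**Figure D2:**
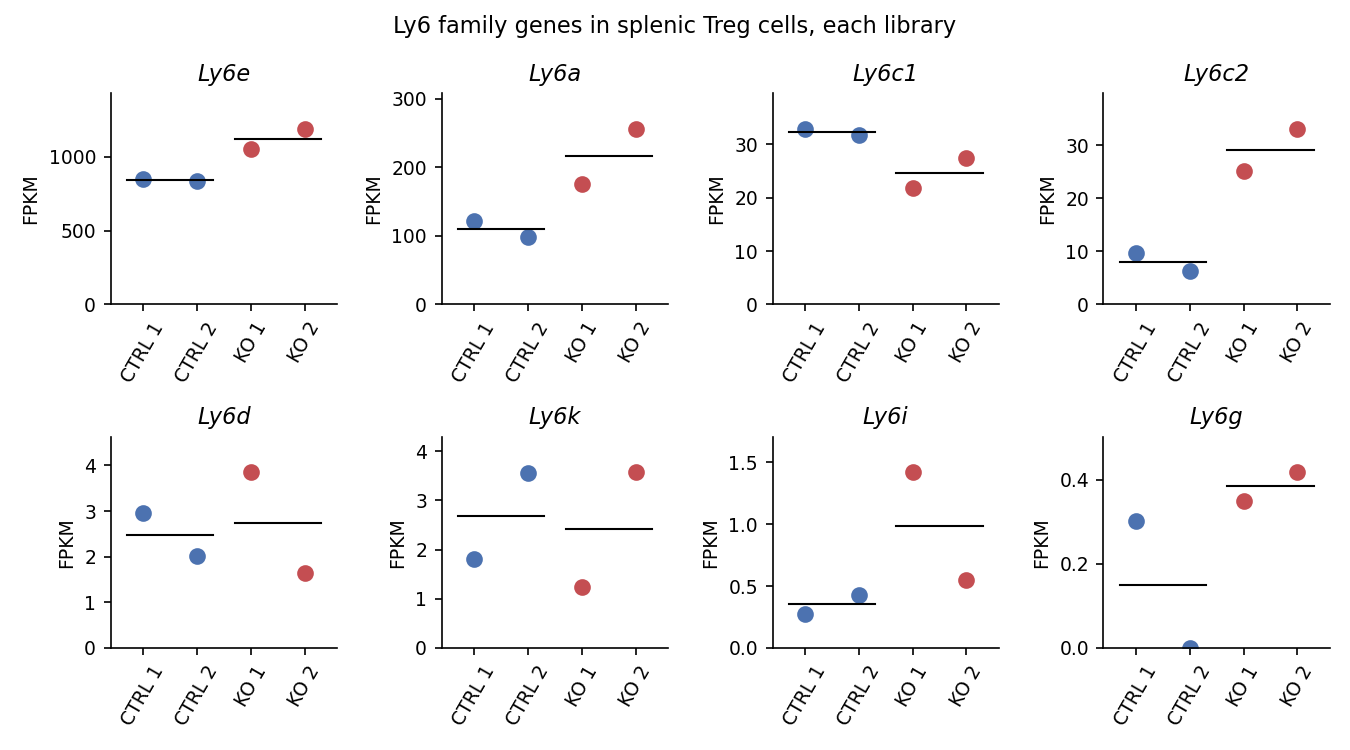
FPKM of each of the 8 genes in the 4 libraries (blue, CTRL; red, KO; horizontal lines, group means of 2 libraries; each panel has its own linear axis from 0). The KO libraries lie above both CTRL libraries for Ly6e, Ly6a, Ly6c2, Ly6i and Ly6g and below them for Ly6c1, and the groups overlap for Ly6d and Ly6k.

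The contrast of KO with CTRL asked which genes of Treg cells depend on Setd2. It was fitted with limma on log2(FPKM + 1) over the 11399 genes with at least 1 FPKM in at least 2 libraries, and a gene passed at a Benjamini-Hochberg adjusted p below 0.05. Of the members, 6 entered the fit and Ly6i and Ly6g were too low. The genes that passed were Ly6c2 and Ly6e, both higher in KO, and 0 members passed as lower. At an unadjusted p below 0.05 in limma, 3 members were higher and 1 was lower, beside 16.3% and 18.4% of all genes tested. Over all genes tested, 9.75% passed, 5.1% as higher and 4.65% as lower. The 2 groups did not overlap for 4 of the 6 members tested and for 64.5% of all genes tested, so in 2 libraries against 2 a lack of overlap is common. The median log2 fold change was 0.23 over the 6 members and -0.02 over all genes tested, and 4 of the 6 were above 0 against 46.2% of all genes. These counts describe members picked with the contrast known and nothing is read from them.

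Ly6c2 showed the widest change of the family. It measured 9.67 and 6.38 FPKM in CTRL and 25.2 and 33.1 in KO, so both KO libraries stood well above both CTRL libraries. The means were 8.02 ± 2.32 in CTRL and 29.2 ± 5.57 in KO (SD, n = 2 each), a ratio of 3.63, and the log2 fold change was 1.75 with a standard error of 0.21. This was the 4th highest fold change among the 581 genes that rose. The whole-number ratios between libraries require at least 254 and 177 reads in CTRL and 713 and 940 in KO, so counting error was small beside the difference. Leaving out a library moved the log2 fold change between 1.49 (without CTRL 2) and 2.02 (without CTRL 1), with 1.94 without KO 1 and 1.56 without KO 2. In those fits, where the lone library was assumed to vary like the other group, Ly6c2 did not pass.

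Ly6c1, its near-identical neighbour, did not follow. It measured 32.9 and 31.8 FPKM in CTRL and 21.8 and 27.4 in KO, and both KO values lay below both CTRL values. The means were 32.3 ± 0.82 and 24.6 ± 3.97 (SD, n = 2 each), a log2 fold change of -0.39 with a standard error of 0.12, which did not pass. It was -0.23 without KO 1 and -0.55 without KO 2. The KO libraries differed from each other by more than KO 2 differed from CTRL 2. At least 1779, 1812, 1265 and 1598 reads lay behind these 4 values.

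The makeup of the Ly-6C pool differed accordingly. Ly6c2 was 22.7% and 16.7% of the summed FPKM of both genes in CTRL and 53.7% and 54.7% in KO. The sum itself was 42.6 and 38.1 FPKM in CTRL and 47.0 and 60.5 in KO. In KO the FPKM of Ly6c2 exceeded that of Ly6c1 in both libraries, and in CTRL it was the reverse. Both the sum and the crossing rest on the gene lengths the authors divided by, which are not given in the sources used here. Taken as the reads themselves, the least reads, which are lower bounds, would imply a Ly6c1 length 2.06 times that of Ly6c2. The exons in GENCODE vM21 add up to 1677 bases for Ly6c1 and 2740 for Ly6c2. Summed as least reads and divided by relative depth, the genes gave 2033 and 1884 in CTRL and 1838 and 2348 in KO. The least reads of each gene may fall short of its reads by a different factor, so this sum does not settle the order of the libraries either. The direction of the difference in the Ly6c2 share between CTRL and KO does not depend on the lengths. In bulk RNA, more cells that express a gene and more RNA in each such cell cannot be told apart.

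**Figure D3:**
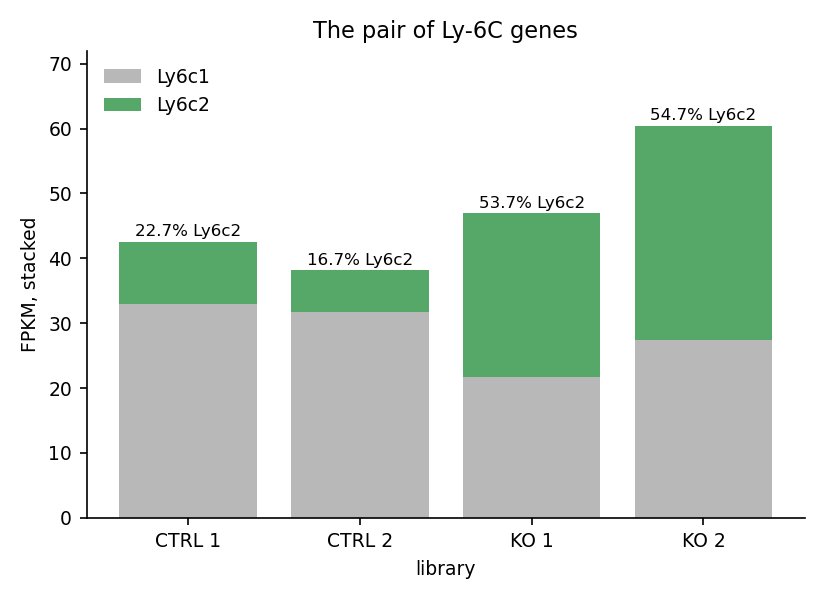
Stacked FPKM of Ly6c1 (grey) and Ly6c2 (green) in each library, with the share of Ly6c2 printed above each bar. Ly6c2 makes up 22.7% and 16.7% in CTRL and 53.7% and 54.7% in KO, while Ly6c1 is lower in KO.

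Ly6a, which encodes Sca-1, measured 122 and 97.9 FPKM in CTRL and 176 and 256 in KO. Both KO libraries stood above both CTRL libraries, but they lay far apart from each other. The means were 109.8 ± 16.8 and 216 ± 57.1 (SD, n = 2 each), a ratio of 1.97, and the log2 fold change of 0.95 with a standard error of 0.20 did not pass. Its rank among all genes was 499 and 664 in CTRL and 357 and 242 in KO. At least 2809 reads lay behind every value, so the spread between the KO libraries was not counting error. Ly6a passed when the libraries were rescaled by the median ratio or to the same sum, with 0.97 and 0.94. It also passed when genes were kept at a mean above 5 FPKM, with 0.95, and with a replicate block, although a pairing was not established. It did not pass with another pseudocount, without a filter on low values, without the variance trend or with a robust variance model. Leaving out a library gave log2 fold changes of 0.68 to 1.22. Of its 100-base stretches, 19 of 1311 (1.45%) occurred in another gene, Ly6c1.

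Ly6e rose by a smaller factor from a much higher level. With the values given above, the groups did not overlap, and the CTRL libraries were nearly equal. The means were 843 ± 7.07 and 1120.0 ± 99.3 FPKM (SD, n = 2 each), a ratio of 1.33, and the log2 fold change was 0.41 with a standard error of 0.080. Measured as FPKM, the difference between the Ly6e means was the largest of the 8 genes, while on the log2 scale Ly6c2 and Ly6a moved further. Ly6e passed, also with another pseudocount, either scaling or a robust variance model. It did not pass without the variance trend or without a filter on low values. Without KO 2 the log2 fold change of Ly6e was 0.32 and without KO 1 it was 0.50, with 0.42 without CTRL 1 and 0.40 without CTRL 2, and Ly6e passed in none of these fits.

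The remaining members were scarce. Ly6d, the B-lineage marker, measured 2.96 and 2.01 FPKM in CTRL and 3.85 and 1.63 in KO, from at least 67, 48, 94 and 40 reads. The groups overlapped, KO holding both the highest and the lowest library, and the log2 fold change was 0.05 with a standard error of 0.32. Ly6k measured 1.81 and 3.55 FPKM in CTRL and 1.25 and 3.58 in KO, with a log2 fold change of -0.16 and a standard error of 0.40. Its values were higher in CTRL 2 and KO 2 than in CTRL 1 and KO 1, and so followed the library number and not the genotype. Of the Ly6k stretches, 135 of 730 (18.5%) also occurred in Gm17189, an antisense gene that overlaps it, and without a stated strand setting reads of these genes cannot be told apart.

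Ly6i, a close relative of Ly6a, measured 0.278 and 0.427 FPKM in CTRL and 1.42 and 0.546 in KO. Both KO values were above both CTRL values, but KO 2, with at least 17 reads and a 95% exact Poisson interval of 0.318 to 0.874 FPKM, overlapped CTRL 2, with at least 13 reads and 0.228 to 0.731 FPKM. The high library was KO 1, with at least 44 reads. Ly6g, the neutrophil antigen, was listed at 0 in CTRL 2 and stood at 0.301 FPKM in the other CTRL library, against 0.350 and 0.418 in KO 1 and KO 2. With at least 4, 5 and 6 reads in CTRL 1, KO 1 and KO 2, the value of 0 allows up to 0.214 FPKM (3 reads, a one-sided limit), and no difference was detectable at this depth. The intervals cover counting error only.

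Several members are also carried by cells other than Treg cells, so the libraries were read for markers of 11 cell types. Foxp3 measured 121 and 139.8 FPKM in CTRL and 112 and 119 in KO. The 5 Treg cell markers, led by Ctla4, summed to 1068 to 1178. Of them, 2 were lower in both KO libraries than in both CTRL libraries, 1 was higher and 2 overlapped. For 64.5% of all genes tested the groups did not overlap. The 5 T cell markers, led by Cd2, summed to 1743 to 1946. Markers of blood cells outside the T lineage were present, and the summed levels of the neutrophil, monocyte, erythroid, plasma cell and B cell lists were higher in both libraries numbered 1 than in both numbered 2, although not for every gene. The 9 neutrophil markers, led by S100a9, summed to 17.4 and 1.03 FPKM in CTRL and 68.1 and 2.74 in KO, with S100a8, Elane, Mpo and Retnlg listed at 0 in CTRL 2. The 7 monocyte and macrophage markers, led by Lyz2, summed to 190.4 and 124 in CTRL and 227 and 127 in KO. The 4 erythroid markers, led by Hba-a1, summed to 12.4 and 2.21 against 20.0 and 5.02, and the 4 plasma cell markers, led by Jchain, to 39.7 and 15.1 against 46.6 and 17.0. The 7 B cell markers, led by Cd79b, summed to 26.4 and 22.0 against 41.3 and 24.6. The remaining lists were low: CD8 T cell markers (Cd8b1) at 8.49 to 11.4, NK cell (Klrb1c) at 2.41 to 3.18, plasmacytoid dendritic cell (Cox6a2) at 0.980 to 2.36 and endothelial cell (Egfl7) at 0.520 to 0.675 FPKM. Of the 34 marker genes tested with limma, 0 passed, beside 9.75% of all genes tested. At an unadjusted p below 0.05 in limma, 3 were higher and 2 lower, beside 16.3% and 18.4% of all genes tested. Several of the sums differed widely within a group, so the lack of calls does not show equal levels of other cells.

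Set beside these sums, Ly6c2 and Ly6a were highest in KO 2, where the neutrophil, erythroid, plasma cell and monocyte markers had lower sums than in KO 1. Within the monocyte list, Ccr2, a chemokine receptor of inflammatory monocytes that T cells also carry, named after its values were seen, went the other way, with 25.7 and 20.7 FPKM in CTRL and 22.6 and 42.8 in KO, so it too was highest in KO 2. In KO 2 and CTRL 2, whose monocyte marker sums were 127 and 124 FPKM, Ly6c2 measured 33.1 and 6.38. With both libraries numbered 1 left out, an alternative chosen after seeing the data and with no test, the log2 difference was 2.21 for Ly6c2, 1.38 for Ly6a, 0.51 for Ly6e and -0.21 for Ly6c1. Ly6d was highest in KO 1, as was the B cell sum, but it was lowest in KO 2, where that sum, 24.6, exceeded the 22.0 of CTRL 2. The high value of Ly6i fell in KO 1, where the neutrophil and monocyte sums were highest. Ly6g, with at least 4, 5 and 6 reads in CTRL 1, KO 1 and KO 2, was too low to be ordered between libraries and set beside these sums. The part of other cells in the values of Ly6c2, Ly6a, Ly6d and Ly6i was not tested.

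**Figure D4:**
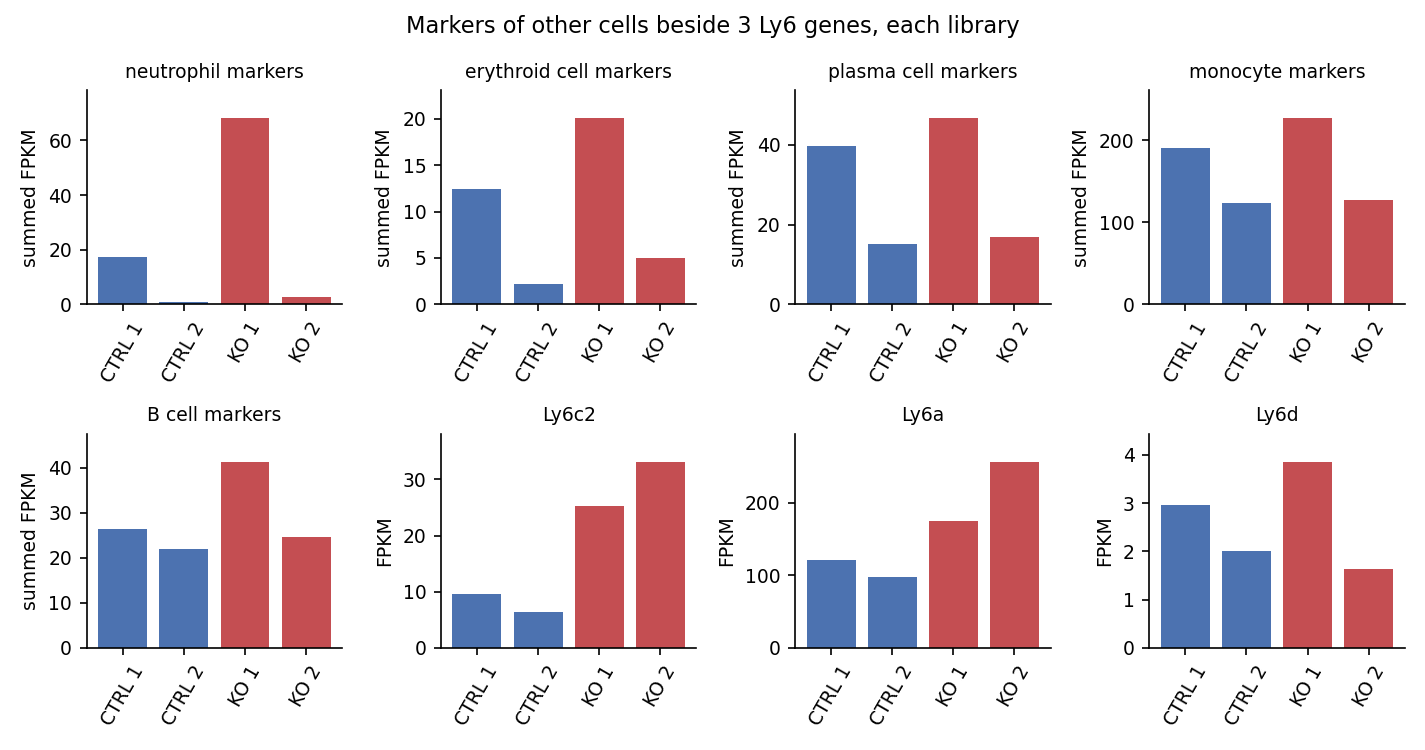
Summed FPKM of 5 marker lists of other cells and FPKM of Ly6c2, Ly6a and Ly6d in each library (blue, CTRL; red, KO; linear axes from 0). The marker sums are higher in CTRL 1 and KO 1 than in CTRL 2 and KO 2, Ly6c2 and Ly6a are highest in KO 2, and Ly6d is highest in KO 1.

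Setd2 itself measured 23.4 and 25.3 FPKM in CTRL and 21.3 and 19.5 in KO, lower in both KO libraries with a log2 fold change of -0.24 and a standard error of 0.076 that did not pass. FPKM covers the whole gene, so it does not show whether the floxed part was lost, and the order of the libraries follows the labels. Depth, from the steps of low values, was 1.06 to 1.08 times that of CTRL 1 in the other libraries, while CTRL 1 listed 19100 genes above 0 and the others 15913 to 16410.

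The genes around the members were read in the same fit. Within 500000 bases of the cluster, the file held 23 other genes, of which 5 were tested and 0 passed, where 9.75% of all genes did (limma, 1 at an unadjusted p below 0.05). That gene was Ly6m, a family relative named after its values were seen, with 1.41 and 1.07 FPKM in CTRL and 1.98 and 2.30 in KO and a log2 fold change of 0.49 (limma adjusted p = 0.079). The neighbours' median log2 fold change was 0.24. Of 32 further LY6 and uPAR relatives in the file, 13 of them among those neighbours, 4 were tested and 0 passed, with 1 at an unadjusted p below 0.05 (Ly6m), and 8 were listed at 0 in all 4 libraries.

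**Figure D5:**
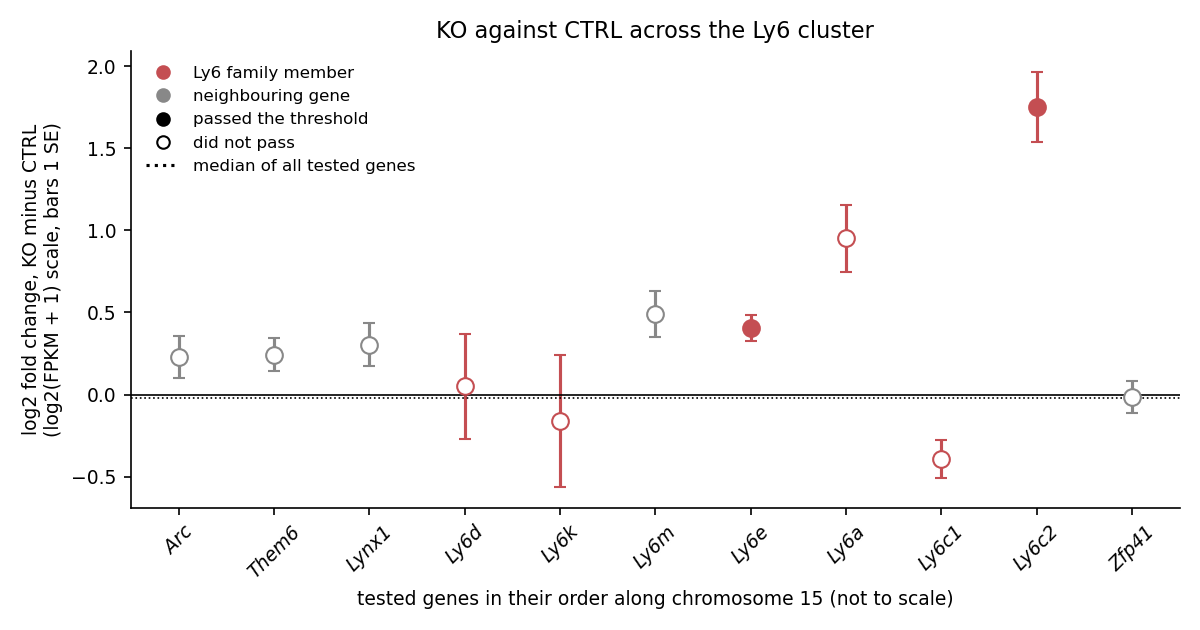
Log2 fold change of KO against CTRL, with bars of 1 standard error, for the 6 tested members (red) and the 5 tested neighbours (grey) in their order along chromosome 15. Filled points passed the threshold, open points did not, and the dotted line is the median of all tested genes, -0.02; Ly6c2 at 1.75 and Ly6c1 at -0.39 are adjacent in this order.

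Ly6a and Ly6e respond to interferon, and a list of 46 other interferon-stimulated genes was read in the same fit. Of these 4 (8.70%) rose, beside 5.1% of all genes tested, 0 fell, and 10 were higher and 1 lower at an unadjusted p below 0.05, a threshold at which 16.3% of all genes tested were higher and 18.4% lower. Cxcl10, a chemokine for T cells, measured 39.4 and 35.8 FPKM in CTRL and 103.6 and 68.1 in KO, a log2 fold change of 1.14 (limma adjusted p = 0.040). Zbp1, a sensor of nucleic acids, rose by 0.55 (limma adjusted p = 0.041), Irf1, an interferon-induced transcription factor, by 0.51 (limma adjusted p = 0.039), and Psmb9, an immunoproteasome subunit, by 0.38 (limma adjusted p = 0.035), all on the log2 scale. The list's median was 0.08, and the groups overlapped for 25 of its 46 genes and for 35.5% of all genes tested. Without the variance trend, 0 of the list passed, with 9 higher and 1 lower at an unadjusted p below 0.05 in limma, and 0 passed in each fit that left out a library, with 5 to 15 higher and 0 lower except without KO 2, where 5 were higher and 7 lower.

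The enzymes that build and attach the GPI anchor, on which most LY6 proteins depend to reach the surface, were read as a list of 29 genes. Of 28 tested, 0 passed, with 2 higher and 7 lower at an unadjusted p below 0.05 in limma, beside the same 16.3% and 18.4% of all genes, and the median log2 fold change was -0.15. Without the variance trend 1 passed as lower.

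The profile of Ly6c2 across the 4 libraries was compared with those of the 8646 tested genes with a mean above 5 FPKM in either group, by Euclidean distance between centred log2(FPKM + 1) values. The nearest was Pde3b, a cyclic nucleotide phosphodiesterase, with 2.95 and 2.67 FPKM in CTRL and 10.3 and 11.0 in KO (distance 0.39), followed by Gm19585 (0.42) and Gzmb, granzyme B (0.47). The profiles nearest to Ly6a were those of 1500009L16Rik (0.19), Csrp2 (0.19) and Glrx (0.23). Those nearest to Ly6c1 were Blcap (0.02), Insig2 (0.04) and Mfsd4a (0.04), and those nearest to Ly6e were Acsf2, Cfl1 and Atox1 (each 0.02). The distances around Ly6c2 were larger than those around the other 3 members, which varied less between libraries.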

How the data were processed

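RNA from 4 pools of sorted splenic Treg cells (2 CTRL, 2 KO) was sequenced as paired reads. The deposited values are FPKM per gene, which the authors made, per the labels and the study's methods, with FastQC, HISAT2 (2.2.1, mm10), featureCounts (2.0.1) and edgeR (3.34.0). The annotation, gene lengths, strand setting and treatment of multi-mapped reads are not given in the sources used here. The columns named WT were read as CTRL. FPKM are not counts, so limma (3.58.1, R 4.3.3, empirical Bayes with a variance trend) was fitted to log2(FPKM + 1) across all genes with at least 1 FPKM in at least 2 libraries, without a block, and p-values were adjusted by Benjamini-Hochberg. Fold changes on this scale understate changes of low genes. The script was tested on simulated data. The least number of reads behind a value was found from whole-number ratios between libraries, within 0.005 of a whole number. Each library is a pool of 2 mice, so p-values measure the spread between pools. The members, gene lists and tests were chosen with earlier results of these data known. Named were all members, Setd2, genes past the threshold in the LY6, neighbour, interferon and GPI lists (at most the 3 or 2 highest and lowest), the highest gene of each marker list, and the 3 nearest profiles. Sequences came from GENCODE vM21 and RefSeq (GRCm38.p6) and were aligned with Biopython (1.88). Protein sequences were not used here. Alternatives were another pseudocount, filters, scalings, variance models, a replicate block and leaving out each library.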

Additional observations from a re-analysis of the deposited data

How the results depend on the processing

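Leaving out a library removed nearly all calls: 0 to 1 genes passed as higher and 0 to 1 as lower, and 0 members as higher, although 1342 to 1423 genes were higher and 1292 to 1621 lower at an unadjusted p below 0.05. Without a filter on low values 0 genes passed in either direction (2212 higher and 2251 lower unadjusted), and 0 members. Without the variance trend 315 genes passed as higher, and 1 member, Ly6c2. Fitted with a replicate block, 968 genes passed as higher and 805 as lower, with 3 members higher, adding Ly6a, and 1 lower, Ly6c1. The numbers are shared by the labels without saying what they mark. CTRL 1 and KO 1 deviated together (r = 0.34 over 11399 genes), which in groups of 2 is the sole independent value, so a pairing was not established. Ly6a also passed with median-ratio scaling, with libraries scaled to the same sum and with a filter of mean FPKM above 5 (log2 fold change 0.97, 0.94 and 0.95).

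Over the 12 alternatives the log2 fold changes were 1.49 to 2.02 for Ly6c2, 0.68 to 1.22 for Ly6a and 0.32 to 0.50 for Ly6e. They were -0.55 to -0.23 for Ly6c1 and -0.30 to -0.18 for Setd2. The groups of these genes did not overlap, so leaving out a library could not turn their sign. The filters, the variance models and the block leave the fold change itself as it was. Their kept sign is therefore no separate support. Ly6d turned to -0.15 without CTRL 2, to -0.39 without KO 1 and to -0.19 in KO 2 against CTRL 2 alone, and Ly6k to 0.19, 0.35 and 0.0085; what turned them was not tested. Without KO 2 they stood at 0.49 and -0.67. The scalings moved the median of all genes by 0.017 and -0.013. The number of libraries, 2 a group, limits every comparison.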
